A study of Mus musculus with 6 samples.

Results

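De novo lipogenesis in liver was described through 10 genes, the enzymes Acly, Acaca, Fasn, Elovl6, Scd1, Scd2 and Me1 and the regulators Thrsp, Srebf1 and Mlxipl. The 10 genes were chosen by name, as members of the pathway, and are 10 of the 47232 gene names with a usable value in every mouse and 10 of the 18619 genes tested. All 10 passed the filter on low values.

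Lipogenesis turns surplus carbohydrate into fatty acid. Citrate leaves the mitochondrion and is cleaved to acetyl-CoA, which is carboxylated to malonyl-CoA and joined into palmitate at the cost of NADPH, and palmitate is then elongated and desaturated before it is built into triglyceride. In liver the genes of this path are driven mainly by SREBP-1c, which answers to insulin, and by ChREBP, which answers to glucose metabolites, and they are known to rise on feeding and to fall on fasting.

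The data are RNA-Seq of liver from 6 house mice (Mus musculus), none of them treated. The laboratory group was 3 adult inbred C57BL/6 males, and the wild group was 3 outbred adults live-trapped in New South Wales, wild mouse 1 a male and wild mice 2 and 3 females. The laboratory mice were killed on arrival, whereas the wild mice were first kept for some months under standard husbandry, and the time since the last meal is not given for either group. Each mouse was measured once, from frozen liver not fixed in formalin, and mouse numbers only name the animals. The comparison asked how expression differed between the genetic backgrounds, but sex differed partly along with origin and a term for sex rests on the single male among the wild mice, so its value is given throughout. The SD of each group is over 3 mice.

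Expression is given on 2 scales. FPKM counts the fragments of a gene per length of transcript and per size of the library. The zFPKM score centres the log2 FPKM of a mouse on the mode of its expressed genes and scales it by their SD, so that it places a gene among the expressed genes of its own liver. That scaling differed between single mice. The mode was 0.491, 0.794 and 2.12 in laboratory mice 1 to 3 and 2.51, 1.31 and 1.77 in wild mice 1 to 3. The SD was between 2.51 and 3.12. It can reverse the order of mice, as for Mlxipl in wild mice 1 and 2, at 28.7 and 24.7 FPKM but 0.87 and 1.06 in zFPKM. The median FPKM of the tested genes was between 0.828 and 1.18 in laboratory mice and between 1.56 and 1.94 in wild mice, so on log2(FPKM + 0.1) the median gene differed by -0.47 (laboratory minus wild), against 0.00 in zFPKM. An FPKM lower in laboratory mice was therefore common. Over all tested genes, 43.7% had a lower FPKM in every laboratory mouse than in every wild mouse and 12.1% a higher one. In limma on zFPKM, 1335 genes were higher and 1355 lower in laboratory mice at an adjusted p under 0.05, together 14.4% of those tested, and on log2(FPKM + 0.1) 1524 were higher and 7065 lower, together 46.1%.

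The tissue was checked against 9 hepatocyte markers with a usable value, of which Tat in laboratory mouse 1 had the lowest single value, an FPKM of 56.96. Their summed FPKM was between 28502 and 39681 in laboratory mice and between 23153 and 26191 in wild mice. Ttr and Apoa1 weighed most in that sum, with laboratory means of 13415 and 18112. In FPKM 7 of the 9 were lower in every laboratory mouse than in every wild mouse, beside 43.7% of all tested genes. The other 2, Ttr and Apoa1, were higher in every laboratory mouse, beside 12.1%. Of the 9, Ttr and Apoa1 were higher in laboratory mice in zFPKM (limma, adjusted p under 0.05) and Apob, Tat and Cyp2e1 lower. Together these were 55.6% of the 9, beside 14.4% of all tested genes. Alb, which encodes albumin, had a failed estimate and was not analysed here. Adipocytes also make fatty acid, and 3 of 10 adipocyte markers (Plin1, Retn and Lep) are listed at 0 in every mouse, with Adipoq, the adipocyte hormone adiponectin, at most 0.0499 FPKM. The summed level of the 10 was between 16.9 and 27.0 FPKM in laboratory mice and between 18.0 and 22.6 in wild mice, and 1 of the 7 tested passed (Adrb3, higher in laboratory mice). Of the markers of other liver cells, 1 of 8 for Kupffer cells (Lyz2) was lower in laboratory mice, 2 of 7 for stellate cells and fibroblasts (Col1a1 and Col3a1) were higher, and 0 of 7 for endothelial cells passed in limma (1 at an unadjusted p under 0.05). The stellate cell and fibroblast list was mixed. In FPKM 3 of the 7 (Lrat, Dcn and Reln) were lower in every laboratory mouse than in every wild mouse, beside 43.7% of all tested genes. Col1a1 and Col3a1 were higher in every laboratory mouse, beside 12.1%. The summed FPKM of that list was between 35.1 and 54.6 in laboratory mice and between 74.2 and 135.6 in wild mice. The part of these other cells in the results was not tested.

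Of the 10 lipogenic genes, 4 passed the test in zFPKM. Acly and Scd2 were lower in laboratory mice, and Mlxipl and Thrsp were higher, against 14.4% called among all tested genes. The other 6, among them the central enzymes Acaca and Fasn and the regulator Srebf1, did not pass, and the median difference of the 10 was -0.01 against 0.00 over all tested genes. On log2(FPKM + 0.1), 2 of the 10 passed, Acly and Scd2, both lower in laboratory mice, where 46.1% of all genes passed. Fewer cells of a type and less RNA per cell cannot be told apart in these bulk samples.

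**Figure D1:**
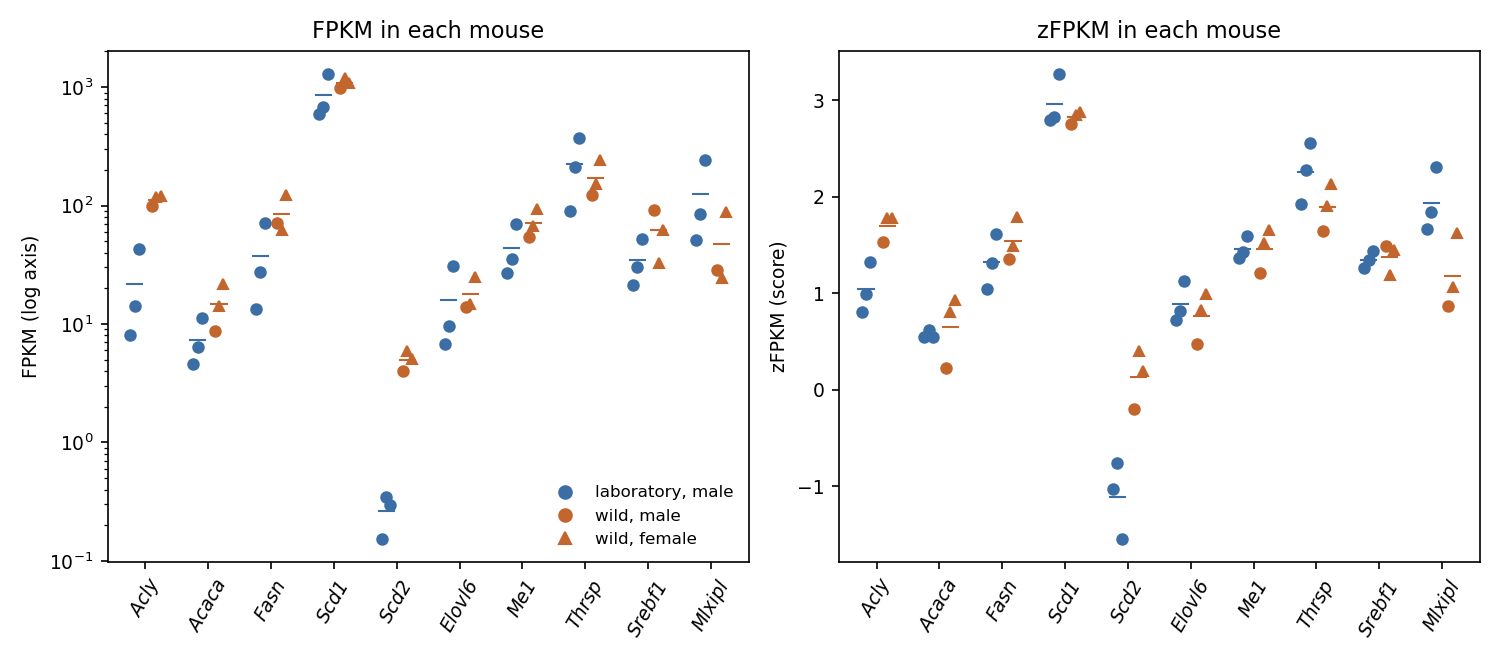
FPKM (left, log axis) and zFPKM score (right) of the 10 genes in each mouse, with laboratory mice in blue, wild mice in orange, the wild females as triangles and a line at each group's mean. The groups separate on both scales for Acly and Scd2, in zFPKM also for Mlxipl, and overlap for the other 7 genes.

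Acly encodes ATP citrate lyase, which makes cytosolic acetyl-CoA from citrate and so opens the pathway. The gene lies on chromosome 11 of GRCm38 from 100476352 to 100528000. Transcripts of Acly measured 8.02, 14.2 and 43.3 FPKM in the laboratory males, against 99.96 in the wild-caught male and 118 and 120 in both wild-caught females. The groups did not overlap, and the wild mice lay close together while the laboratory mice were spread 5.40-fold. The mean was 21.8 ± 18.8 in the laboratory group and 112 ± 10.8 in the wild group (SD, n = 3 each), 5.15 times as high. In zFPKM Acly was 1.04 ± 0.260 in the laboratory group and 1.70 ± 0.141 in the wild group (SD, n = 3 each), a difference of -0.66 (SE 0.138, limma adjusted p = 5.91e-05). On log2(FPKM + 0.1) the difference was -2.71 (SE 0.538, limma adjusted p = 0.00501). The lower level in laboratory mice kept its sign under all 18 alternatives and its call under 13 of them.

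The promoters of the called genes are shown with the short motifs searched in them, those known for SREBPs (the sterol response element TCACNCCAC), for E-box factors (CACGTG) and for the partners NF-Y (CCAAT) and Sp1 (GGGCGG). None of the promoters shown holds the sterol response element, and Mlxipl alone holds the E-box. The promoter of a second start of Mlxipl, not printed, does hold the sterol response element, 136 bases before that start. RefSeq promoters of GRCm38.p6 (250 bases before the start and 50 from it) were at hand for 8 of the 10 genes, 12 entries in all, with none for Scd1 and Scd2. In the Acly promoter, chr11:100527951-100528250 on the minus strand, the capitals mark 4 copies of the Sp1 motif GGGCGG or its complement and 1 of the NF-Y motif CCAAT, which begins at base 38 of the transcript.
Acly: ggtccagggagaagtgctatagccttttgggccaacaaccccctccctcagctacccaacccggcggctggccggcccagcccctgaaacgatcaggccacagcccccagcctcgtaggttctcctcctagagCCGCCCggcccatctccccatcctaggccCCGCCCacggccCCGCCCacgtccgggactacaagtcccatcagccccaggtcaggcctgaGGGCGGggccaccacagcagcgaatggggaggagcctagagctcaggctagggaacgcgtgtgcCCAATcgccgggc

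Acaca, acetyl-CoA carboxylase 1, makes malonyl-CoA and is the committed step of fatty acid synthesis. The gene spans 84129635 to 84401651 of chromosome 11, and its FPKM was 4.55, 6.43 and 11.2 in the laboratory males, with 8.66 in the wild-caught male and 14.1 and 21.8 in both wild-caught females. The groups overlapped, since the wild male lay between the laboratory mice. In zFPKM the laboratory mice were nearly level with each other at 0.57 ± 0.0433 (SD, n = 3), and the wild mice were spread over a wider range at 0.65 ± 0.376 (SD, n = 3). The difference of -0.08 (SE 0.185) did not pass (limma adjusted p = 0.838).

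Fasn, the multienzyme fatty acid synthase, builds palmitate from acetyl-CoA and malonyl-CoA. The gene spans 120805958 to 120825166 of chromosome 11. It measured 13.3, 27.7 and 71.7 FPKM in the laboratory males, with 70.9 in the wild-caught male and 62.1 and 123 in both wild-caught females. Laboratory mice 1 and 2 lay below all wild mice and laboratory mouse 3 among them. The mean FPKM in wild mice was 2.27 times that in laboratory mice, but the zFPKM difference of -0.22 (SE 0.136) did not pass (limma adjusted p = 0.305), nor did that of -1.45 on log2(FPKM + 0.1) (limma adjusted p = 0.0750). The Fasn difference passed under none of the 18 alternatives, and it was -0.0314 with sex as a covariate and in males only, -0.0830 without laboratory mouse 1 and -0.0993 without wild mouse 3.

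Me1, cytosolic malic enzyme, yields NADPH for the synthase and is encoded on chromosome 9 between 86581363 and 86695914. Its FPKM was 26.8, 35.4 and 69.4 in the laboratory males, with 54.1 in the wild-caught male and 66.9 and 93.2 in both wild-caught females. The ranges overlapped, and in zFPKM the group means were alike at 1.46 ± 0.117 and 1.46 ± 0.230 (SD, n = 3 each), with a difference of 0.00 (SE 0.134, limma adjusted p = 0.997).

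Elovl6 extends palmitate to stearate, the substrate of the desaturases, and lies on chromosome 3 between 129532386 and 129638495. It was at 6.76, 9.68 and 31.1 FPKM in the laboratory males, with 13.9 in the wild-caught male and 14.8 and 25.1 in both wild-caught females. Laboratory mouse 3 had the highest value of all 6 mice and laboratory mouse 1 the lowest, so the wild range lay inside the laboratory range. The zFPKM difference of 0.12 (SE 0.169) did not pass (limma adjusted p = 0.710), and its sign was the opposite on log2(FPKM + 0.1), at -0.44.

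Stearoyl-CoA desaturases place the first double bond in stearate and palmitate. Scd1 is the main form in liver, and Scd2 is best known from brain and from the liver of newborn mice. Both lie on chromosome 19 of GRCm38, Scd1 from 44394450 to 44407709 and Scd2 from 44293676 to 44306864.

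Scd1 had the highest level of the 10 genes in every mouse. Its FPKM was 589, 678 and 1290 in the laboratory males, with 976 in the wild-caught male and 1188 and 1084 in both wild-caught females. The laboratory mice spanned the wild range on either side. In zFPKM Scd1 was 2.97 ± 0.266 in the laboratory group and 2.83 ± 0.0628 in the wild group (SD, n = 3 each). The difference of 0.14 (SE 0.0940) did not pass (limma adjusted p = 0.388), and it was -0.43 on log2(FPKM + 0.1), also short of the threshold (limma adjusted p = 0.295).

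Scd2 had the lowest level of the 10 genes in every mouse and the largest difference between the groups. Its FPKM was 0.153, 0.347 and 0.296 in the laboratory males, with 3.98 in the wild-caught male and 5.87 and 5.06 in both wild-caught females. The groups were far apart, and the wild mean of 4.97 ± 0.946 was 18.7 times the laboratory mean of 0.265 ± 0.1003 (SD, n = 3 each). In zFPKM it was -1.11 ± 0.398 in the laboratory group and 0.13 ± 0.301 in the wild group (SD, n = 3 each), a difference of -1.25 (SE 0.323, limma adjusted p = 0.00192). On log2(FPKM + 0.1) the difference was -3.82 (SE 0.326, limma adjusted p = 1.49e-04). The bounds on FPKM deposited for 5 of the mice reached at most 0.461 in laboratory mice 2 and 3 and were at least 3.59 in the wild mice. Cells other than hepatocytes express Scd2 too, and the summed level of 8 Kupffer cell markers (resident macrophages of liver) was between 37.0 and 47.1 FPKM in the laboratory males, with 24.9 in the wild-caught male and 98.9 and 244 in both wild-caught females. Lyz2, the called marker among them, was 5.30, 7.58 and 2.89 FPKM in the laboratory males, with 12.05 in the wild-caught male and 51.1 and 123 in both wild-caught females. The other 7 markers did not pass in zFPKM. On that scale the groups overlapped for all 8, and the median difference of the list was 0.07. The part of cells other than hepatocytes in the Scd2 difference was not tested.

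Reads can be shared between desaturase genes, so the transcripts are shown to let the difference be judged. In GENCODE M21 on GRCm38 the coding sequences of Scd1-201 and Scd2-201 had 1065 and 1074 bases and were 89.6% identical over their alignment, with a longest identical run of 147 bases. Of the windows of 100 bases, the read length used, 48 were found in transcripts of both genes, which was 0.982% of the windows of Scd1 and 0.879% of those of Scd2. The stretch printed has 120 bases, from coding base 75 of Scd1-201 and coding base 84 of Scd2-201, with capitals at the 32 positions where they differ.
Scd1-201: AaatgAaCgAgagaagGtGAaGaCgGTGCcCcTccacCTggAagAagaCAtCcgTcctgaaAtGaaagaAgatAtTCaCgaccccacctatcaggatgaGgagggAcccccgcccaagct
Scd2-201: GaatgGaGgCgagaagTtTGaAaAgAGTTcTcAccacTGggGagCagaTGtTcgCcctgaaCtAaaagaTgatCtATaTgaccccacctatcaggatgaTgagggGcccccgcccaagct

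Within a mouse, Scd1 was 3840, 1956 and 4365 times Scd2 in laboratory mice, and 245, 202 and 214 times in wild mice. Scd3 and Scd4, the other desaturase genes beside them on chromosome 19, were also lower in laboratory mice. Scd3 was at 0.0814, 0.242 and 0.444 FPKM in laboratory livers and 18.6, 23.9 and 21.4 in wild livers, a zFPKM difference of -2.05 (SE 0.271, limma adjusted p = 5.40e-12). Scd4 was listed at 0 in laboratory mouse 1 and was 0.00819 and 0.0178 FPKM in the other two, against 1.46, 1.90 and 1.86 in wild mice (zFPKM difference -2.46, SE 0.466, limma adjusted p = 5.38e-06, with the low values set to -3). Shared windows of 100 bases numbered 86 between Scd1 and Scd3, 26 between Scd2 and Scd3 and 17 between Scd1 and Scd4, so a part of the reads of these genes could be assigned to the wrong copy.

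Thrsp encodes Spot 14, a small nuclear and cytosolic protein that answers to thyroid hormone and carbohydrate and promotes lipogenesis. The gene is short, between 97412933 and 97417550 of chromosome 7. It was the second most abundant of the 10 genes in both groups, at 90.3, 213 and 375 FPKM in the laboratory males, with 122 in the wild-caught male and 152 and 242 in both wild-caught females. The FPKM ranges overlapped, with laboratory mouse 1 the lowest of all mice and laboratory mouse 3 the highest. In zFPKM it was 2.26 ± 0.316 in the laboratory group and 1.89 ± 0.243 in the wild group (SD, n = 3 each), a difference of 0.37 (SE 0.113, limma adjusted p = 0.0126), although these ranges overlapped too. On log2(FPKM + 0.1) the difference was 0.23 and did not pass (limma adjusted p = 0.743). The call was kept under 3 of the 18 alternatives and was lost without laboratory mouse 3 (difference 0.21, limma adjusted p = 0.318), without wild mouse 1 (0.24, 0.335), without laboratory mouse 2 (0.36, 0.0766) and without wild mouse 2 (0.37, 0.0670). Without both laboratory mouse 3 and wild mouse 1 the difference was 0.0881 (limma adjusted p = 0.649). The Thrsp promoter, chr7:97417501-97417800 on the minus strand, holds CCAAT or its complement at 79 and 52 bases before the start, in capitals.
Thrsp: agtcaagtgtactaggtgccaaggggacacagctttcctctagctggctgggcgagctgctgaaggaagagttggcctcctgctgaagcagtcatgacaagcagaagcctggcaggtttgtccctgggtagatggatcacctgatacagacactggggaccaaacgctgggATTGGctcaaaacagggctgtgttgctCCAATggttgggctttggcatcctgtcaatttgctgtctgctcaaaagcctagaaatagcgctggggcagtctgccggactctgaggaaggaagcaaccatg

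Srebf1 encodes SREBP-1, the membrane-bound factor that drives most genes of the pathway once it is cut and enters the nucleus. The gene lies on chromosome 11 between 60199084 and 60224186. Its FPKM was 21.4, 30.1 and 52.7 in the laboratory males, with 91.7 in the wild-caught male and 32.8 and 62.2 in both wild-caught females. It was the only gene of the 10 with its highest value in the wild male, and the groups overlapped. The zFPKM was 1.35 ± 0.0863 in the laboratory group and 1.38 ± 0.162 in the wild group (SD, n = 3 each), and the difference of -0.03 (SE 0.139) did not pass (limma adjusted p = 0.928). These values are of the transcript, which does not show how much of the protein was cut.

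Mlxipl encodes ChREBP, which binds with its partner Mlx at carbohydrate response elements of lipogenic and glycolytic genes. On GRCm38 the gene spans 135089890 to 135139768 of chromosome 5. It measured 50.7, 84.8 and 241 FPKM in the laboratory males, with 28.7 in the wild-caught male and 24.7 and 87.4 in both wild-caught females. On this scale the ranges overlapped, since wild mouse 3 lay above laboratory mice 1 and 2. The zFPKM ranges did not overlap, at 1.94 ± 0.334 in the laboratory group and 1.18 ± 0.392 in the wild group (SD, n = 3 each), a difference of 0.75 (SE 0.130, limma adjusted p = 3.70e-07). On log2(FPKM + 0.1) Mlxipl was 1.35 higher in laboratory mice without passing (limma adjusted p = 0.132), and with a median of 0 in each mouse on that scale it was 2.10 higher and passed (limma adjusted p = 0.0149). The difference was positive under all 18 alternatives and the call was kept under 10 of them. It was lost without wild mouse 1 (limma adjusted p = 0.0544), and it was 0.41 (limma adjusted p = 0.155) without both laboratory mouse 3 and wild mouse 1, an alternative chosen after seeing the data.

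In the Mlxipl promoter at the gene's first start, chr5:135089640-135089939 on the plus strand, the capitals mark the E-box CACGTG at 98 bases before the start, 2 copies of GGGCGG and 1 complement of CCAAT.
Mlxipl: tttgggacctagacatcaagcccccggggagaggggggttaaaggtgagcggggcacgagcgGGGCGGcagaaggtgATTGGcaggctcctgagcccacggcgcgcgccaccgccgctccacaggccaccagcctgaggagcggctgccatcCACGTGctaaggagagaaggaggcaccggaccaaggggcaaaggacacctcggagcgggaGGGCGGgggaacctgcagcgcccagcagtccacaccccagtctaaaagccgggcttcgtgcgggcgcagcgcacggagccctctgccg

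The 4 motifs were searched on both strands, and in the promoters shown no match overlapped another. CCAAT was in 7 of 12 entries against 37.4% of all 32851 promoters, GGGCGG in 5 of 12 against 35.7%, CACGTG in 1 of 12 against 7.15%, and the sterol response element TCACNCCAC in 1 of 12, a second start of Mlxipl, against 1.24%. A match is a run of letters and not a bound site, and the absence of a match in these windows says nothing of the factors.

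**Figure D2:**
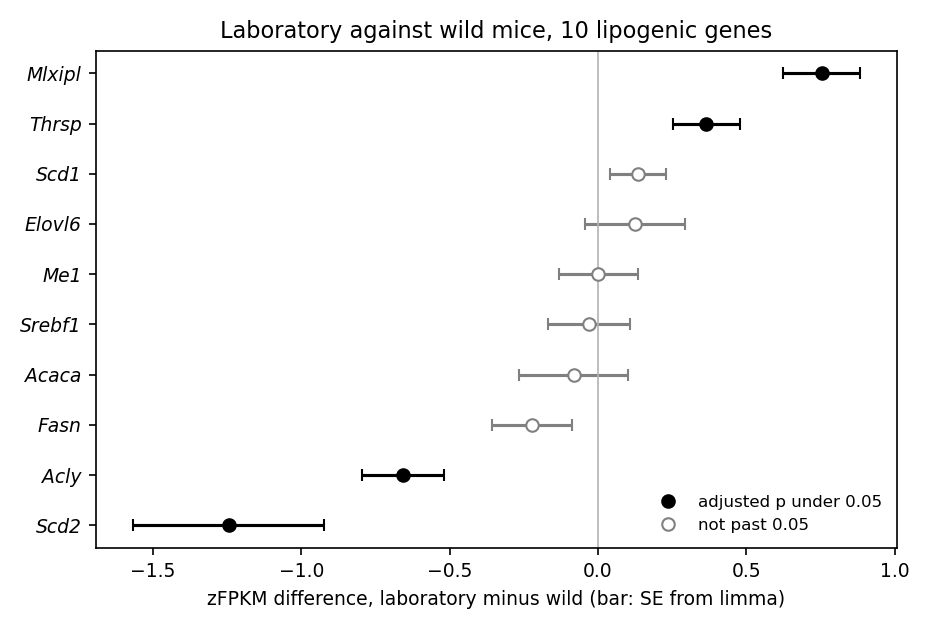
zFPKM difference (laboratory minus wild, horizontal axis) of each of the 10 genes, with bars for the SE from limma and filled points for an adjusted p under 0.05. Scd2 at -1.25 and Acly at -0.66 lie on the low side, Thrsp at 0.37 and Mlxipl at 0.75 on the high side, and the other 6 lie between -0.22 and 0.14.

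Counted by range, 2 of the 10 genes had a lower FPKM in every laboratory mouse than in any wild mouse (Acly and Scd2), beside 43.7% of all tested genes, and 0 of 10 had a higher one, beside 12.1%. In zFPKM 3 of 10 did not overlap, Acly and Scd2 below and Mlxipl above, beside 28.3%. These shares were near or below those of all genes, so the count of separated genes does not set the 10 apart. The standard errors rest on a trend of the variance over all genes, since limma put infinite prior degrees of freedom on it, and not on the spread of each gene. Without the trend, Scd2 alone of the 10 passed (limma adjusted p = 0.0474), with Acly at 0.134, Mlxipl at 0.174 and Thrsp at 0.430. With sex as a covariate Mlxipl alone passed (difference 1.07, limma adjusted p = 0.0200), while Acly was -0.50 (0.136) and Scd2 was -0.92 (0.149).

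The laboratory mice were uneven. Laboratory mouse 3 had the highest FPKM of its group for 9 of the 10 genes, all but Scd2, beside 49.6% of all tested genes, and laboratory mouse 1 the lowest for 10 of 10, beside 57.9%. In the wild group, wild mouse 3 had the highest FPKM for 7 of 10, beside 42.8%. The summed FPKM of the 10 genes was 810, 1100 and 2186 in laboratory livers and 1470, 1678 and 1862 in wild livers, so the laboratory mice held both ends of the range. The fold range of FPKM was wider among laboratory than wild mice for 8 of the 10 genes, all but Acaca and Srebf1. The share over all tested genes was not taken for this count, so it does not set the 10 apart. In zFPKM the median SD of the 10 was 0.263 in laboratory and 0.236 in wild mice, against 0.296 and 0.269 over all tested genes.

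The order of levels was alike at both ends and differed in the middle. By mean FPKM Scd1 led and Thrsp followed in both groups, and Elovl6, Acaca and Scd2 came last. Acly stood at place 7 in laboratory mice and at place 3 in wild mice, and Mlxipl at place 3 and place 7. Among neighbours in the laboratory order, Scd1 and Thrsp, and Acaca and Scd2, were the pairs whose ranges did not overlap, and in wild mice Thrsp and Acly were a further such pair.

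Ratios within a mouse remove the scaling of that mouse, and are given as a description because the pairs were picked after the values had been seen. Acly was 0.605, 0.513 and 0.604 times Fasn in laboratory livers, and 1.41, 1.89 and 0.973 times in the wild mice. Both genes were several-fold higher in laboratory mouse 3 than in laboratory mouse 1, yet their ratio was nearly the same in those mice. Over genes above 0 in every mouse, 4.12% had a ratio to Fasn that was lower in every laboratory mouse than in every wild mouse, and Acly and Scd2 were among them. The ratio to Fasn was higher in every laboratory mouse for 24.5% of genes, among them Mlxipl, Thrsp and Elovl6.

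Mlxipl was 3.83, 3.07 and 3.37 times Fasn in laboratory mice and 0.404, 0.397 and 0.712 times in wild mice. Thrsp was 6.81, 7.70 and 5.23 times Fasn against 1.72, 2.45 and 1.97 times. Elovl6, which did not pass as a single gene, was 0.510, 0.350 and 0.433 times Fasn against 0.195, 0.238 and 0.204 times. These 3 were named because their groups did not overlap, so the wild male had to lie on the wild side. The part of sex in them was not tested. The ratios of Acaca, Me1, Scd1 and Srebf1 to Fasn overlapped between the groups. Between the regulators, Mlxipl was 2.38, 2.82 and 4.58 times Srebf1 in laboratory mice and 0.312, 0.752 and 1.41 times in wild mice. Of all 45 pairs of the 10 genes, 30 had ratios that did not overlap, beside 53.7% of the pairs of all genes, and Acly, Scd2 and Mlxipl were each apart in all 9 of their pairs. These are the same 3 genes that did not overlap in zFPKM, so their pairs are no separate evidence. How often other genes were apart in all their pairs was not counted.

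**Figure D3:**
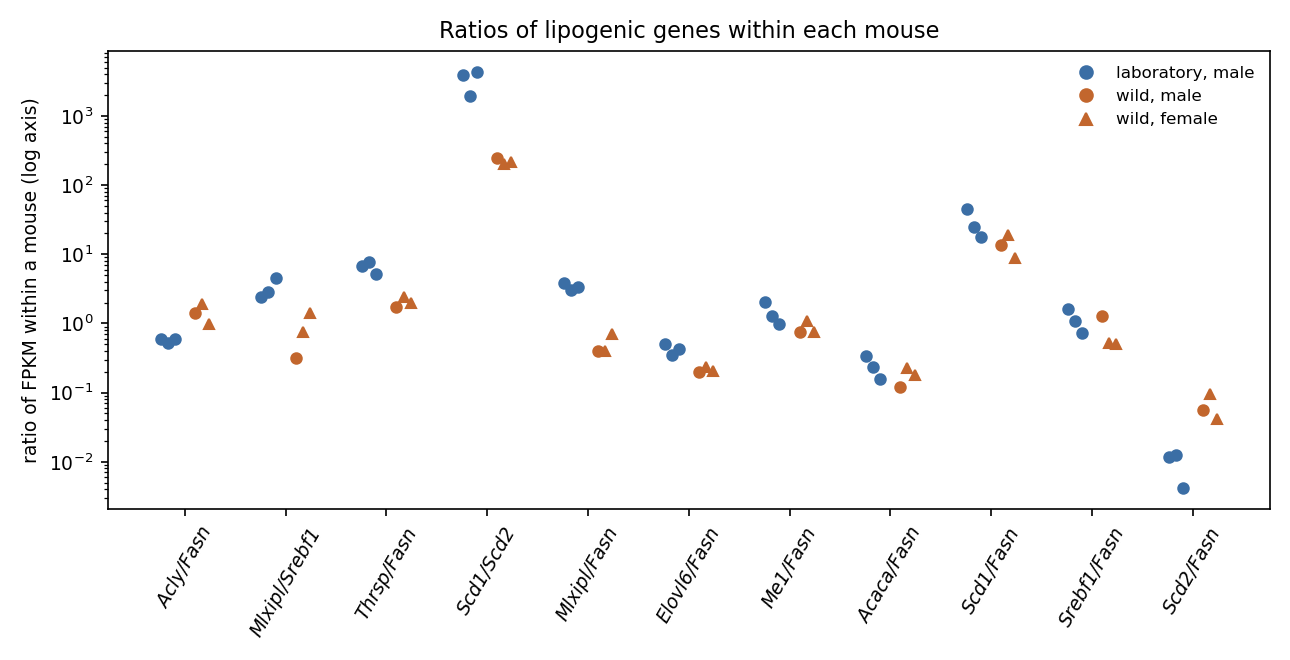
Ratios of FPKM within a mouse (log axis) for 11 pairs of the 10 genes, with laboratory mice 1 to 3 from left to right in blue and wild mice 1 to 3 in orange, the wild females as triangles. The ratio of Acly to Fasn is at most 0.605 in laboratory mice and at least 0.973 in wild mice, and that of Mlxipl to Fasn at least 3.07 against at most 0.712.

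Other genes of the pathway were taken from 5 lists, in which 68 of 74 genes were tested, 3 were higher and 18 lower in laboratory mice in zFPKM, beside the 14.4% called over all genes. Of these 21 calls, 9 held with each mouse left out in turn, among them those of Scd3, Scd4, Acsl5, Fads1, Fads2, Fitm2, Elovl3 and Fitm1, and 12 were lost without at least 1 mouse. Among 19 other enzymes of fatty acid synthesis, elongation and desaturation, 9 were lower and 1 was higher, with a median difference of -0.31 against 0.00 over all tested genes. The largest falls were those of Scd4 and Scd3, given above, and of Acsl4, which activates polyunsaturated fatty acids, at 1.18, 2.66 and 2.25 FPKM in laboratory mice against 22.3, 12.5 and 8.24 in wild mice (zFPKM difference -0.73, SE 0.216, limma adjusted p = 0.00902). Acss2, which makes acetyl-CoA from acetate and so works beside Acly, was 18.6, 25.7 and 81.8 FPKM against 115, 224 and 169 (zFPKM difference -0.49, SE 0.127, limma adjusted p = 0.00174). The others that were lower were Mcat, Acsl5, Fads1, Fads2 and Hsd17b12, with zFPKM differences between -0.70 and -0.45. Fads1 and Fads2, the desaturases of polyunsaturated fatty acids, were near to Acly in size, at -0.58 and -0.50. Acacb, the mitochondrial carboxylase whose malonyl-CoA restrains fatty acid oxidation, was 2.02, 4.22 and 11.1 FPKM in laboratory livers and 13.2, 13.7 and 17.0 in wild livers, and its zFPKM difference of -0.31 did not pass (limma adjusted p = 0.325).

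Elovl3, an elongase of very long chains, was the gene of that list higher in laboratory mice, at 52.6, 66.7 and 49.6 FPKM against 43.4 in the wild-caught male and 1.15 and 0.0955 in both wild-caught females (zFPKM difference 1.95, SE 0.184, limma adjusted p = 1.05e-23). The wild male lay near the laboratory males and far from the wild females. The difference was 1.24 without wild mouse 3 (limma adjusted p = 2.23e-08), 0.51 with sex as a covariate (0.459), and it did not pass without the trend of the variance (0.130). The other sources of cytosolic NADPH showed 0 of 4 tested genes past the threshold with limma, also at an unadjusted p under 0.05, against 3 of 4 lower on log2(FPKM + 0.1), where 37.9% of all tested genes were called lower. G6pdx, the entry of the pentose phosphate path, was 2.44, 1.72 and 4.25 FPKM in laboratory livers and 1.31, 1.94 and 2.88 in wild livers (zFPKM difference 0.41, limma adjusted p = 0.348). Pgd was not analysed here.

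Among 19 genes of glyceride synthesis and the lipid droplet, 3 were lower and 1 was higher in laboratory mice, with a median of -0.17. The lower genes were Fitm2, which partitions triglyceride into droplets (zFPKM difference -1.05), Gpat4, an acyltransferase of the first step (-0.46), and Plin2, the main droplet coat protein of hepatocytes (-0.41). Fitm1 was higher at 0.91 (SE 0.178, limma adjusted p = 1.24e-05), with 17.0, 23.9 and 27.9 FPKM in the laboratory males, with 25.0 in the wild-caught male and 1.72 and 4.33 in both wild-caught females, again with the wild male among the laboratory males, and it too did not pass without the trend (limma adjusted p = 0.111) or with sex as a covariate (difference 0.36, limma adjusted p = 0.310). Gpam, the mitochondrial acyltransferase and a target of SREBP-1c, was 7.42, 13.3 and 26.9 FPKM against 60.2, 39.5 and 44.7 (zFPKM difference -0.35, limma adjusted p = 0.112). Pnpla3, another such target, was 0.226, 0.553 and 9.64 FPKM in laboratory livers and 0.188, 2.66 and 2.72 in wild livers, highest of all in laboratory mouse 3 (zFPKM difference 0.33, limma adjusted p = 0.580).

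Among 16 partners and controls of SREBP-1 and ChREBP, 6 were lower and 0 higher in laboratory mice in limma. At an unadjusted p under 0.05, 0 were also higher, and the median difference was -0.29. The 6 calls were 37.5% of the list, beside 14.4% of all tested genes. Each of the 6 was lost without at least 1 mouse, and each was lost with sex as a covariate. Insig1, which holds SREBPs in the endoplasmic reticulum and is itself their target, was 39.5, 75.8 and 113 FPKM in laboratory livers and 272, 203 and 238 in wild livers (zFPKM difference -0.34, SE 0.118, limma adjusted p = 0.0302). Srebf2, the sister factor that drives cholesterol synthesis, was 3.51, 4.07 and 4.66 FPKM against 17.8, 21.9 and 19.8 (zFPKM difference -0.54, SE 0.189, limma adjusted p = 0.0326). Mid1ip1, a relative of Thrsp that activates acetyl-CoA carboxylase, was 10.0, 14.3 and 13.9 FPKM against 51.7, 47.7 and 65.3, lower in laboratory mice at -0.48 (SE 0.152, limma adjusted p = 0.0151) whereas Thrsp was higher. The other 3 were Rxra (-0.55), Usf2 (-0.45) and Insig2 (-0.42). Mlx, the partner of ChREBP, was 8.71, 10.5 and 11.8 FPKM against 19.9, 15.0 and 16.3, with a zFPKM difference of 0.00 (limma adjusted p = 0.993), and Nr1h3, the liver X receptor that activates Srebf1, had a difference of -0.07 (limma adjusted p = 0.823).

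Among 10 genes that feed glucose and fructose into the pathway, 1 was higher and 0 were lower in laboratory mice in limma. That was 10.0% of the list, beside 14.4% of all tested genes, and the gene is not reported here. At an unadjusted p under 0.05, 2 were higher and 1 was lower, and the median difference was -0.08. Pklr, liver pyruvate kinase and a classic target of ChREBP, was 39.4, 53.0 and 90.0 FPKM against 44.9, 48.2 and 53.8, and its zFPKM difference of 0.35 missed the threshold (SE 0.134, limma adjusted p = 0.0593). On log2(FPKM + 0.1), 48 of the 68 genes of the 5 lists were lower and 0 higher in laboratory mice by limma, with 2 higher at an unadjusted p under 0.05. Beside that count, 37.9% of all tested genes were called lower on this scale.

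**Figure D4:**
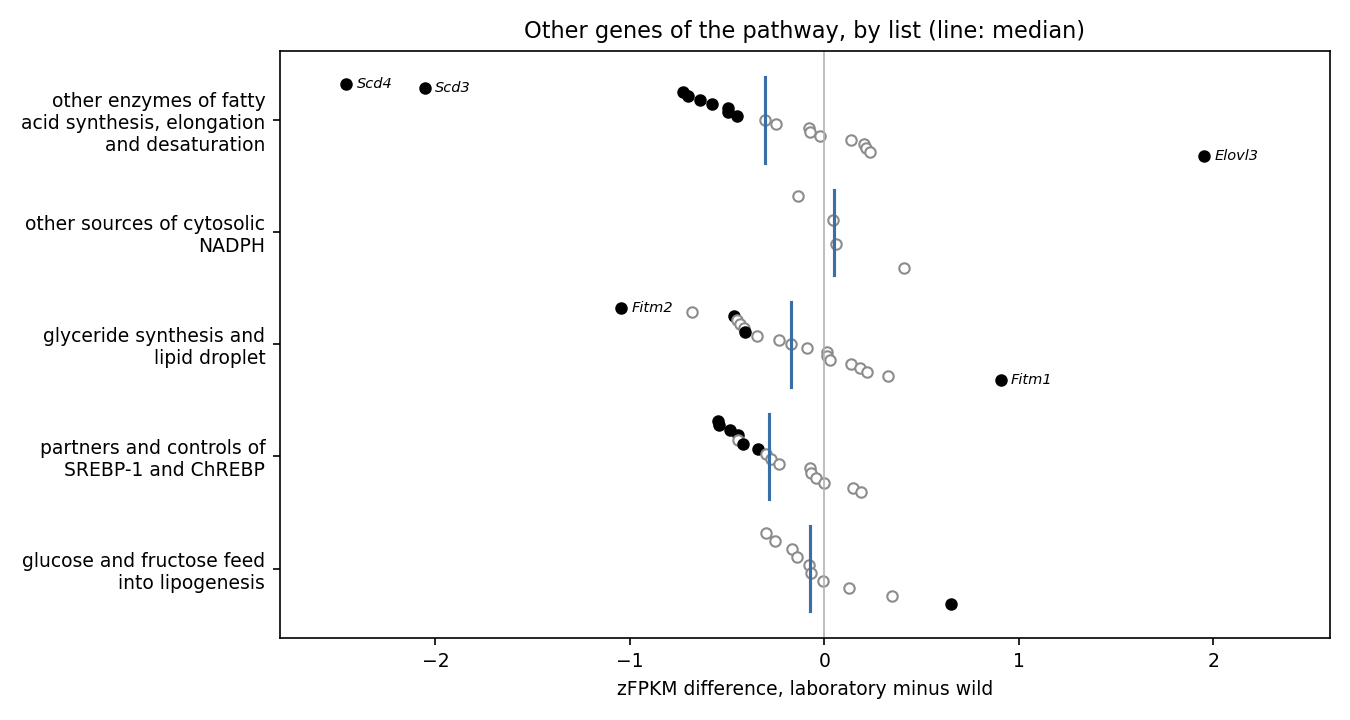
zFPKM difference (laboratory minus wild, horizontal axis) of the 68 tested genes of the 5 pathway lists, filled where the adjusted p was under 0.05, with a line at each list's median. The medians lie between -0.31 and 0.05, and Scd3, Scd4 and Elovl3 stand farthest from 0.

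The mean zFPKM profile of the 10 genes, each centred on its own mean over the 6 mice, was -0.20, -0.04 and 0.11 in laboratory livers and -0.18, 0.07 and 0.23 in wild livers. The profiles nearest to it among 6913 other genes with a mean zFPKM above 0 were those of Zfand4, Ppp1r3b, Rsrc2, Atf5 and Slc29a1, by a root mean square distance between 0.0506 and 0.0718 over the 6 mice. Ppp1r3b encodes a subunit that directs protein phosphatase to glycogen in liver, and Atf5 a transcription factor of stress responses. Within each group the profile had a low mouse (laboratory mouse 1 and wild mouse 1) and a high mouse (laboratory mouse 3 and wild mouse 3), and the groups overlapped.

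**Figure D5:**
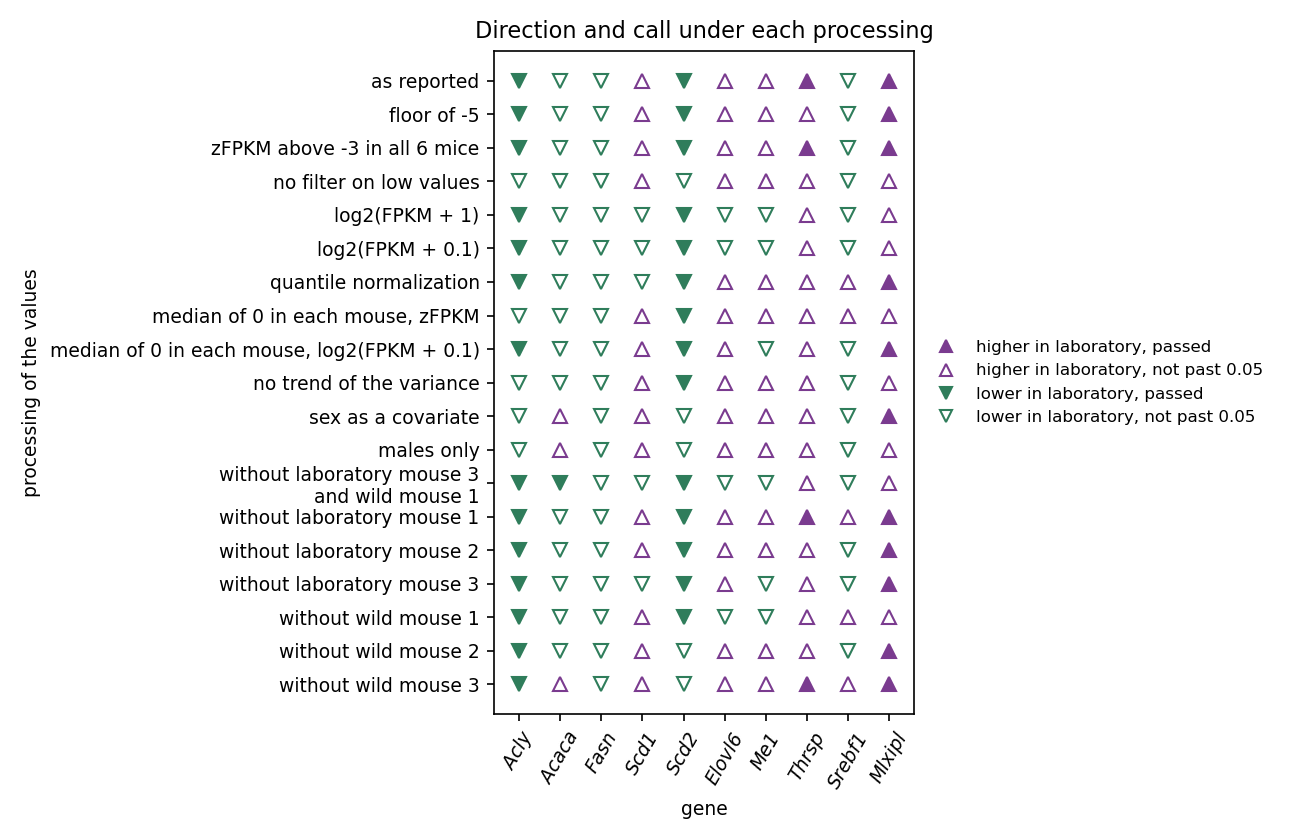
Direction (up for higher in laboratory mice, down for lower) and call (filled for an adjusted p under 0.05) of the 10 genes under the processing as reported and under each of 18 alternatives. Acly, Scd2, Fasn, Mlxipl and Thrsp keep their direction throughout, and the filled marks of Acly and Scd2 stand under 13 alternatives each, those of Mlxipl under 10 and those of Thrsp under 3.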

How the data were processed

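RNA came from frozen liver of 3 laboratory and 3 wild mice, and stranded mRNA libraries were read from a single end over 100 bases. For the deposited FPKM, reads had been placed on a masked mouse genome by the authors with kalign, and the Tuxedo pipeline scaled the fragments of each gene to transcript length and library size. The authors then used the R package zFPKM to turn each mouse's log2 FPKM into a score, also deposited, from a mode and an SD of that mouse. The submitters' processing notes also name Picard and GRCm38.p6. No counts were used here, so the study's count-based test was not repeated. The depth of the libraries is unknown. Each group had 3 mice, and the standard errors rest on the trend of the variance over all genes.

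Of 47256 gene names listed once in every mouse, 24 with a marked failed estimate were left out. Failures are not marked for laboratory mouse 1. Names listed more than once (Slc25a1, Acsl3, Mogat1 and Pgd among the pathway genes) were not used. A gene entered the test when its zFPKM exceeded -3 in 3 mice or more, and values below -3 were raised to it. Testing used limma 3.58.1 under R 4.3.3, a linear model with moderated variances that follow a trend with expression, and p-values were adjusted over all 18619 genes by Benjamini-Hochberg (threshold 0.05). The procedure was tested on simulated data with independent noise, in which 200 genes were shifted by 2 in zFPKM. It recovered 80% of them, and 5.33% of its calls were false. Smaller shifts and the partial overlap of sex with origin were not simulated. Tables, ratios, promoters and figures were made with numpy 2.4.6, pandas 2.3.3 and matplotlib 3.10.9 under Python 3.11.15.

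The genes and lists were chosen with earlier results of these data known. Named are all 10 lipogenic genes, 14 fixed genes of the pathway where usable, and of each list every gene past the threshold where there were at most 5, otherwise the 3 highest and the 3 lowest differences. Mcat, Acsl5, Fads1 and Fads2 are named beyond this rule, chosen after their values were seen. Some genes that the rule or the marker lists would name are not reported here. Starts in the files count from 0, so 1 was added. The alternatives were other floors and filters, log2(FPKM + 0.1) and log2(FPKM + 1), quantile normalization, centring each mouse on a median of 0, dropping the variance trend, a term for sex, males only, and each mouse left out. Nothing says that replicate numbers pair mice of the groups, so no blocked fit was made.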

Additional observations from a re-analysis of the deposited data

How the results depend on the processing

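Of the 10 lipogenic genes, 4 passed as reported. None of the 10 passed without a filter on low values (2 at an unadjusted p under 0.05 in limma) or in males only (1 at an unadjusted p under 0.05), where 3 laboratory mice met 1 wild male. The count was 1 without the trend of the variance (Scd2), 1 with sex as a covariate (Mlxipl), 1 with a median of 0 in each mouse in zFPKM (Scd2), and 2 on both log2(FPKM + 0.1) and log2(FPKM + 1) (Acly and Scd2). With 1 mouse left out it was between 2 and 4. Scd2 lost its call without wild mouse 2 (limma adjusted p = 0.0640) and without wild mouse 3 (0.0564). Without laboratory mouse 3 and wild mouse 1, an alternative chosen after seeing the data, Acaca passed as well as Acly and Scd2.

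In the 5 pathway lists 21 genes passed as reported, 48 on log2(FPKM + 0.1) and on log2(FPKM + 1), 33 after quantile normalization, 37 with a median of 0 in each mouse on log2(FPKM + 0.1), 41 without laboratory mouse 3 and wild mouse 1, 4 with sex as a covariate, 2 without the trend, and 0 without a filter or in males only. With 1 mouse left out the count was between 10 and 19. Over all genes 2690 passed as reported, 1335 higher and 1355 lower. The count was 23 without a filter, 8242 on log2(FPKM + 1), 8589 on log2(FPKM + 0.1), 7282 after quantile normalization, 5270 with a median of 0 in zFPKM, 8817 with a median of 0 on log2(FPKM + 0.1) (5352 higher and 3465 lower), 795 without the trend, 1374 with sex as a covariate (1125 higher and 249 lower), 5676 without laboratory mouse 3 and wild mouse 1, and 0 in males only (3120 at an unadjusted p under 0.05), and it was between 1420 and 2556 with 1 mouse left out.

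Differences that changed sign belonged to genes that had not passed. Acaca was 0.35 with sex as a covariate and in males only. Scd1 was -0.43 on both log2 scales, -0.0318 after quantile normalization and -0.0534 without laboratory mouse 3 and wild mouse 1. Elovl6 was -0.40 on log2(FPKM + 1), -0.44 on log2(FPKM + 0.1) and -0.14 without laboratory mouse 3 and wild mouse 1. Me1 was -0.77 on log2(FPKM + 1), -0.78 on log2(FPKM + 0.1), -0.0427 with a median of 0 on that scale and -0.19 without laboratory mouse 3 and wild mouse 1. Srebf1 was 0.00971 after quantile normalization and 0.00507 with a median of 0 in zFPKM. With 1 mouse left out, the difference of Acaca ran from -0.30 to 0.0560, of Scd1 from -0.0179 to 0.22, of Elovl6 from -0.0204 to 0.24, of Me1 from -0.13 to 0.0976 and of Srebf1 from -0.12 to 0.0266. The cause of these changes was not tested.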
